A study of Mus musculus with 12 samples.

Results

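The subject of this account is a set of 639 regions of mouse hippocampal messenger RNA that carried a 5-methylcytosine (m5C) peak at 3 months of age and none at 18 months. The peaks of 6 lists, 3 from each age, were joined wherever they touched or overlapped on the same strand, which gave 23698 merged regions on chromosomes 1 to 19. The 639 regions were chosen by the measured peaks themselves: each had a peak in at least 2 of the 3 young lists and in 0 of the 3 aged lists. They made up 2.70% of all merged regions. By the mirrored rule, at least 2 aged lists and 0 young lists, 3535 regions were found, which is 14.9%. Because the rule used the contrast between the ages, these counts are descriptions and carry no test.

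The study profiled hippocampi of wild-type C57BL/6 females in 2 groups of mice, 18 months old (labelled natural aging) and 3 months old (labelled young). Each group had 3 libraries made from RNA pulled down with an antibody against m5C and 3 input libraries made without the antibody. One peak list per antibody library was deposited, and lists of the input libraries were not analysed here. The labels do not say whether the libraries of a group came from separate animals, so the spread between lists may be technical.

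5-methylcytosine is a cytosine with a methyl group on carbon 5 of the base. In RNA it is written mainly by enzymes of the NSUN family and by DNMT2, of which NSUN2 is the main writer on messenger RNA, and it is read by proteins such as ALYREF, an export adaptor, and YBX1, which stabilises transcripts. In an antibody experiment the mark is seen as a stretch where fragments pulled down outnumber those of the input, so a peak can be called only where the transcript itself is present and covered by enough reads. A region without a peak is therefore not a region shown to lack the mark, and transcript level and methylation cannot be told apart in these lists.

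Among the 639 regions, 34 reached into the RefSeq window around an annotated gene start, and in 20 of them the upstream edge of the region was exactly the annotated start. The same counts are not given for other regions, so whether such edges are usual in these lists is not known. In spans of at least 2000 bases, 6.77% of the set had the midpoint in the first 1000 bases, against 8.69% of all merged regions. The 4 windows that follow are shown because they span the kinds of host found in the set: a stress-response factor, a housekeeping enzyme, an olfactory receptor and a cytokine. The letters are the genomic strand of the gene in RefSeq's build GRCm38.p6, which is mm10, and capitals mark bases inside the 3-month region. The windows lie at chr11:5520593-5520670 for Xbp1, chr2:151542423-151542512 for Fkbp1a, chr11:49443793-49443882 for Olfr1388 and chr1:20730845-20730934 for Il17a, all on the plus strand. For Xbp1 the first capital lies 12 bases downstream of the annotated start, and for the others it is the annotated start itself.
Xbp1: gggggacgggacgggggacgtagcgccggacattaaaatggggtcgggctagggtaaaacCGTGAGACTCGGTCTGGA
Fkbp1a: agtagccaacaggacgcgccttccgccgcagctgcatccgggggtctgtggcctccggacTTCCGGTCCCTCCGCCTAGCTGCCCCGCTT
Olfr1388: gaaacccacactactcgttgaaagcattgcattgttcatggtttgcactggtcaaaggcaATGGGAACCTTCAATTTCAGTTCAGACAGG
Il17a: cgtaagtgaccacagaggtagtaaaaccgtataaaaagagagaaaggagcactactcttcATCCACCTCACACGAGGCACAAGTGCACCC

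A second group of windows is shown because different genes of the set carry the same letters at the edge of their regions. Gm5795 (chr14:3188195-3188284) and Gm10413 (chr14:3395033-3395122) are predicted genes on the plus strand whose regions start 206838 bases apart, and 90 of the 90 bases compared were identical. Ccl27b (chr4:42653849-42653938), a chemokine gene, and the predicted gene Gm13306 (chr4:42156690-42156779) lie 497159 bases apart and were also identical at 90 of 90 bases. Reads from such copies cannot be assigned to one gene by sequence over these bases. Capitals again mark bases inside the region.
Gm5795: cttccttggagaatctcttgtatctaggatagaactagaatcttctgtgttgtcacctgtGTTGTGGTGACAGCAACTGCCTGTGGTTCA
Gm10413: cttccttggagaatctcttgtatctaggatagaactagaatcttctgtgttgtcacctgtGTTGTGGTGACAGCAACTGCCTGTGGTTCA
Ccl27b: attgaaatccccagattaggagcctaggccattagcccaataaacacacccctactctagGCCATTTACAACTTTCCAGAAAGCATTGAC
Gm13306: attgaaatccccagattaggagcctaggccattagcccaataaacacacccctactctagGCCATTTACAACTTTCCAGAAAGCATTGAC

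One region of the set lay over a microRNA. The region chr1:20679010-20679165 on the plus strand, 156 bases long and inside no protein-coding gene span, covered the whole hairpin of miR-206 (chr1:20679010-20679082), a microRNA best known from skeletal muscle. No peak was listed there in any aged list or in young list 1, and it scored 174 in young list 2 and 172 in young list 3. The mature sequences are given as RefSeq holds them, with the seed, bases 2 to 8, in capitals.
mmu-miR-206-5p: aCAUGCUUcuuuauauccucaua
mmu-miR-206-3p: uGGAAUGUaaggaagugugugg

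Most of the set rested on 2 young lists and on low scores. A peak was present in all 3 young lists and 0 aged lists for 146 regions, 0.616% of all merged regions, against 1218 regions (5.14%) in all 3 aged and 0 young lists. The other 493 regions were split evenly over the pairs of young lists, with 164 in lists 1 and 2, 163 in lists 1 and 3 and 166 in lists 2 and 3. No pair of young lists therefore supplied most of these regions. That no single young library supplied the set is fixed by the rule. The score is the authors' own value for a peak, and the sources used here do not state its scale. It is used here to rank peaks within a list and, as a geometric mean over lists, to rank regions. It also serves as a threshold applied alike to all lists. Both of the latter uses take the scores of different lists as comparable, which was not tested. In young lists 1, 2 and 3 the median score of the peaks in the set was 79.8, 76.9 and 75.1, while all peaks of the same lists had medians of 137, 117 and 122. The median peak of the set stood at the 27.8th, 30.5th and 27.5th percentile of its list.

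**Figure D1:**
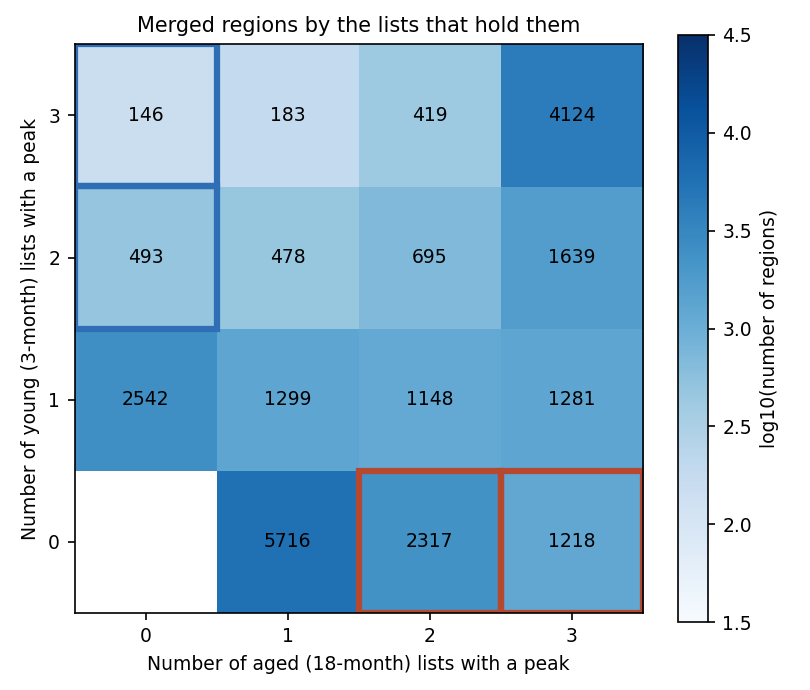
Number of merged regions on chromosomes 1 to 19 by the number of aged lists (horizontal axis) and young lists (vertical axis) that hold a peak; the colour is the log10 of the number. The blue frames mark the 493 and 146 regions found only at 3 months, and the red frames the 2317 and 1218 regions found only at 18 months.

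The lists differed in length, with 15189, 14008 and 14294 peaks in the aged lists and 9887, 8549 and 10392 in the young lists. Read depth is unknown, since the lists hold no read counts. With only the 8549 best-scored peaks of every list kept, the rule gave 1105 regions only at 3 months and 1096 only at 18 months. Equal lengths give both ages the same number of peaks, so numbers this close are largely set by the trimming. The trimming also drops low-scored aged peaks, by which a region can come to lack an aged peak. It therefore cannot be used to judge the difference between 639 and 3535. Of the 639 regions, 437 overlapped 1 of the 1105. Just outside the threshold lay 2542 regions with a peak in 1 young and 0 aged lists, and 661 regions in 2 or 3 young lists and 1 aged list. The score of a region, taken as the geometric mean over the lists that hold it, had a median of 64.4 in the former and 89.9 in the latter. The 639 regions had a median of 77.6. When young list 1, 2 or 3 was left out, so that both other young lists were needed, 312, 309 and 310 regions remained under the rule.

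A small number of regions had scores far above the median of the set. The 12 described first are those with the highest geometric mean of the score over all 3 young lists among regions in 1 protein-coding gene that is not a predicted gene. Left out by this were a region of the predicted gene Gm9780, with a geometric mean of 865, and one in no gene span, with 697. The top one of the 12 was in Eif3a, which encodes a core subunit of the factor that brings messenger RNA to the small ribosomal subunit. Its 154-base region (chr19:60769866-60770019, minus strand) scored 3100 in each of the 3 young lists, a value that 401, 274 and 341 peaks of young lists 1, 2 and 3 share. No aged list had a peak there, although stretches of the gene 973, 2870, 2975 and 5632 bases away carried a peak in all 6 lists.

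Psip1, which encodes a chromatin reader and transcriptional co-activator, had a 94-base region with scores of 3115, 1407 and 1759 in young lists 1, 2 and 3. Suds3, a subunit of the Sin3 histone deacetylase complex, scored 2312, 1939 and 1516 over 157 bases. Ssrp1, a subunit of the histone chaperone FACT, scored 658, 594 and 390 over 139 bases. These chromatin genes kept peaks elsewhere in all 6 lists: the nearest such region lay 4363 bases from that of Psip1, 1334 bases from that of Suds3 and 3814 bases from that of Ssrp1.

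Cdc42bpa, a kinase that acts downstream of the small GTPase Cdc42, scored 1207, 1126 and 1089 over 106 bases. Fam133b scored 1777, 741 and 862 over 79 bases. Both genes had a region in all 6 lists nearby, at 4774 and 838 bases. Ccdc42, a gene of sperm tail formation, was the exception in this group. Its 159-base region scored 972, 741 and 703 in young lists 1, 2 and 3, no other peak lay in the gene in any list, and the nearest aged peak on the same strand was 104520 bases away.

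**Figure D2:**
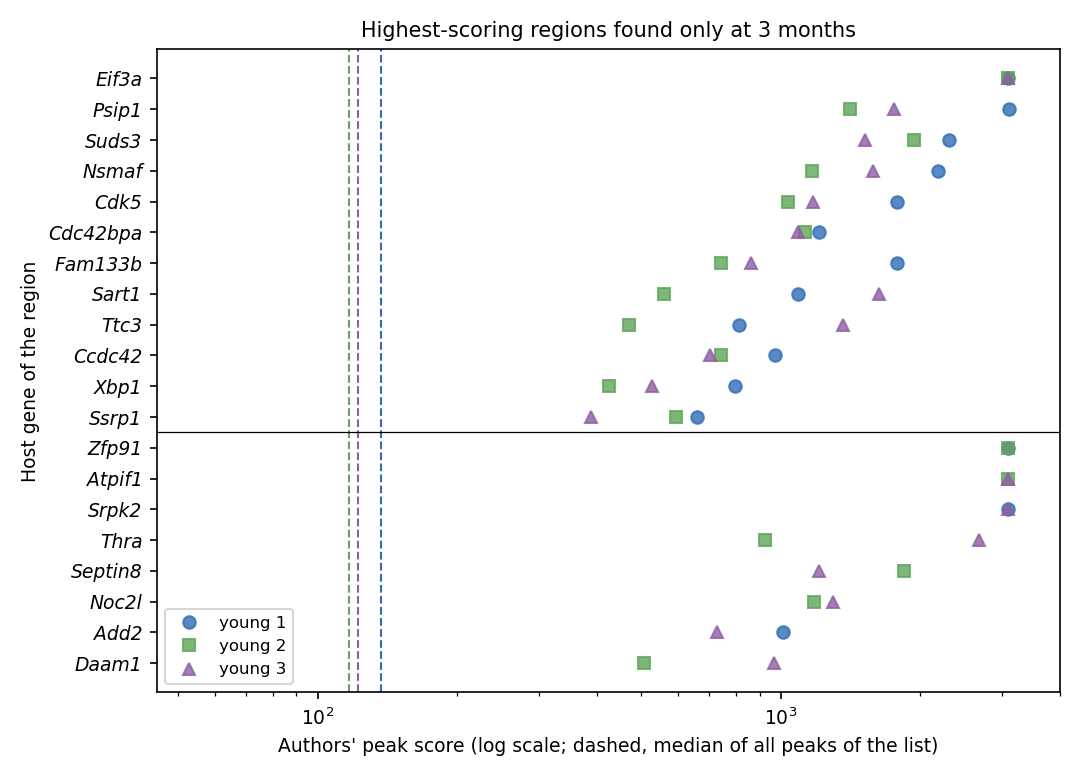
Authors' peak score (log axis) in each young list for the 12 highest-scoring regions in all 3 young lists (above the line) and the 8 highest in exactly 2 (below it), among regions in 1 protein-coding gene that is not predicted; dashed lines are the median scores of all peaks of young lists 1, 2 and 3 (137, 117 and 122). The aged lists hold no peak at any of these regions, and every point lies above the dashed lines.

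Among regions in exactly 2 young lists and in 1 gene of this kind, Zfp91, Atpif1 and Srpk2 scored 3100 in both of their lists. Zfp91 is a zinc finger ubiquitin ligase, Atpif1 the inhibitor of mitochondrial ATP synthase and Srpk2 a kinase of SR splicing proteins. The 2 lists were young 1 and 2 for Zfp91, young 2 and 3 for Atpif1, and young 1 and 3 for Srpk2. That no peak was listed in the third young library is fixed by the choice of regions in exactly 2 young lists. A score of 3100 in 2 lists thus occurred where the third list had no peak, and how often was not tested.

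For several of the strongest regions the aged lists held a peak in a neighbouring stretch of the same gene that the young lists lacked. In Nsmaf, an adaptor that links the tumour necrosis factor receptor to neutral sphingomyelinase, 53 bases at chr4:6432680-6432732 scored 3100, 3100 and 3122 in aged lists 1, 2 and 3 and had no young peak. The 3-month region, 72 bases at chr4:6433263-6433334, scored 2181, 1165 and 1578 in young lists 1, 2 and 3 and had no aged peak. The 2 stretches lay 530 bases apart. That the 3-month region has no aged peak is fixed by the rule, and the absence of young peaks from its neighbour is not.

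Cdk5, the neuronal cyclin-dependent kinase known for phosphorylating tau, had the same arrangement. The 89 bases at chr5:24422798-24422886 scored 2894, 2471 and 1288 in aged lists 1, 2 and 3, and the 82 bases at chr5:24423449-24423530 scored 1777, 1037 and 1171 in young lists 1, 2 and 3. They lay 562 bases apart, and no other peak was listed in the gene at either age. Counted by gene, Cdk5 had a peak in all 6 lists.

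In Ttc3, a ubiquitin ligase gene, a 101-base stretch scored 2721, 1699 and 3100 in aged lists 1, 2 and 3. The 3-month region lay 1119 bases downstream of it and scored 811, 470 and 1363 in young lists 1, 2 and 3. Regions in all 6 lists flanked the pair on both sides. In Sart1, a component of the splicing tri-snRNP, the aged lists scored 2524, 2111 and 2385 over 632 bases, and the young lists scored 1087, 558 and 1629 over 207 bases lying 3484 bases upstream.

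**Figure D3:**
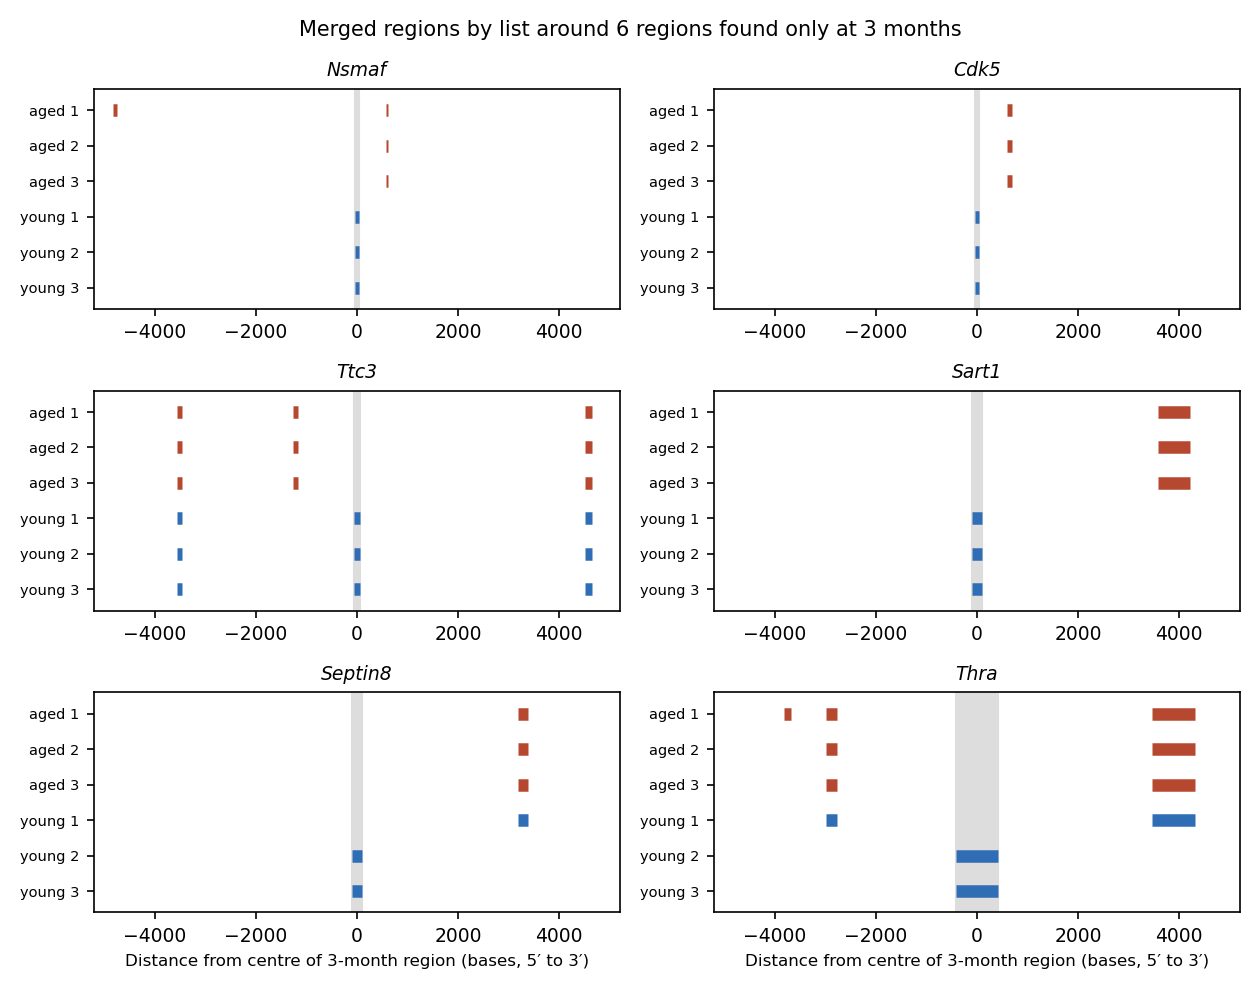
Merged regions within 5000 bases of 6 regions found only at 3 months (grey band), by list, with aged lists (red) above young lists (blue); the horizontal axis is the distance in bases from the centre of the 3-month region, 5′ to 3′. In Nsmaf, Cdk5, Ttc3 and Sart1 the 3 aged lists hold a neighbouring stretch that the 3 young lists lack, and in Septin8 and Thra young list 1 holds the neighbouring stretch together with the aged lists.

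The pattern also ran through single young libraries. Septin8, a septin of the cytoskeleton, had a 191-base stretch with scores of 2667, 3100 and 2367 in aged lists 1, 2 and 3 and 1935 in young list 1. Its 3-month region, 196 bases long and 3096 bases away, scored 1843 and 1210 in young lists 2 and 3. Thra, the thyroid hormone receptor alpha gene, had a 206-base stretch with scores of 525, 401 and 793 in the aged lists and 178 in young list 1, and 2351 bases from it a 3-month region with 924 and 2680 in young lists 2 and 3. In both genes each library held one of the stretches and not the other.

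A neighbour of this kind, listed in exactly the libraries from which the first region is missing, was found within 5000 bases in the same gene for 34 of the 601 regions that lay in 1 protein-coding gene (5.66%). The share was 10.2% for the regions in all 3 young lists (14 of 137) and 4.31% for those in 2 (20 of 464). It was 5.93% (37 of 624) for regions in 2 or 3 young lists and 1 aged list, so such neighbours were not particular to the set. Over all merged regions that were absent from at least 1 list it was 2.21% (420 of 19033), and for regions found only at 18 months it was 0.867% (30 of 3460). A pair with one partner in all 3 young lists and the other in all 3 aged lists is counted from both sides. Such pairs gave 14 of 137 regions on the young side and 14 of 1190 (1.18%) on the aged side. The shares of the 2 ages therefore depend on class size and do not show a pattern more typical of 3 months. Regions are not replicates, and these shares carry no test. With lists of equal length the share was 2.59%, and it was 9.86% over peaks scoring at least 100. Without young list 1, 2 or 3 it was 10.8%, 8.90% and 9.03%.

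Counting any region found only at 18 months, 45 of the 601 regions had one within 2000 bases in the same gene (7.49%), with a median gap of 734 bases. Regions in 2 or 3 young lists and 1 aged list had such a neighbour in 6.73% of cases (42 of 624), and all merged regions in 5.01%. Among the 3-month regions in all 3 young lists the share was 15.3% (21 of 137), against 5.17% for those in 2 young lists and 3.48% for regions in 1 young and 0 aged lists. In 11 of the 45 pairs both partners were present in all 3 lists of their age. These included, besides Nsmaf, Cdk5 and Ttc3, Pramel42, Cwf19l2, Dhx16, Slc4a8, Plcb3, Hspa9 and Osbpl1a, which are named here after their values were seen. The share was 3.36% with lists of equal length, 12.7% over peaks scoring at least 100, 13.6% over peaks at or above their list's median score, 4.75% without aged list 3, and 13.9%, 13.0% and 11.8% without young list 1, 2 or 3.

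In Dhx16, a helicase of the spliceosome, 255 bases scored 728, 528 and 256 in aged lists 1, 2 and 3. The 3-month region of the same gene, 245 bases long and 919 bases away, scored 149, 299 and 165 in young lists 1, 2 and 3. Most regions of the set had the same ends in the lists that held them. Of the 636 regions with 1 peak in each such list, 422 (66.4%) had identical first and last bases, beside the 71.1% of regions found only at 18 months and the 71.9% of regions in all 6 lists. The sources used here do not say how the caller placed a peak that spans a splice junction, and its part in these neighbouring pairs was not tested.

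Xbp1, the transcription factor of the unfolded protein response whose messenger RNA is cut and rejoined by the stress sensor IRE1, had a partial form of the pattern. A 357-base stretch scored 1226, 1413 and 1288 in the aged lists and 323 in young list 2. The 548-base 3-month region that opens with the window printed above lay 462 bases upstream and scored 796, 426 and 528 in young lists 1, 2 and 3. Young list 2 held both stretches, so the libraries did not split cleanly here. Fkbp1a, a prolyl isomerase that binds the drug FK506, had a 491-base stretch with 426, 565 and 264 in the aged lists and 305 in young list 3, and 73 bases upstream a 262-base region with 370 and 511 in young lists 1 and 2.

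The 601 regions with 1 host lay in 584 genes. Another 30 regions lay in no protein-coding span and 8 in several. No gene held more than 2 of the regions, and 17 genes held 2. Elsewhere in the gene, 136 host genes (23.3%) had a region in all 6 lists, 118 (20.2%) had no such region but a peak in all 3 aged lists, and 135 (23.1%) had a peak in 1 or 2 aged lists. A further 33 (5.65%) had other peaks in young lists only and 162 (27.7%) had no other peak at all. For most host genes the aged hippocampus thus still had listed peaks in the transcript, at another place, but this was less common than over all merged regions. Counted by region, 33.1% of the 601 had no other aged peak in the gene, against 21.1% of all merged regions and 16.9% of 18-month regions. The share was 36.6% for regions in 1 young and 0 aged lists and 28.4% for those in 2 or 3 young lists and 1 aged list.

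Counted per list, 331, 302 and 325 of the 584 host genes had another peak in aged lists 1, 2 and 3, and 265, 266 and 259 in young lists 1, 2 and 3. The shares were 54.7% ± 2.62 in the aged lists and 45.1% ± 0.648 in the young lists (SD, n = 3 each). Over the 9160 genes with any peak, which served as the background, they were 68.6% ± 2.44 in the aged lists and 54.5% ± 3.10 in the young lists. The background counts every peak of a gene, while the host genes' own 3-month region was left out, so the measures are not quite alike. Hosts of regions found only at 18 months, counted as the 3-month hosts were, stood at 63.6% ± 1.15 in the aged lists and 56.5% ± 3.82 in the young lists.

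**Figure D4:**
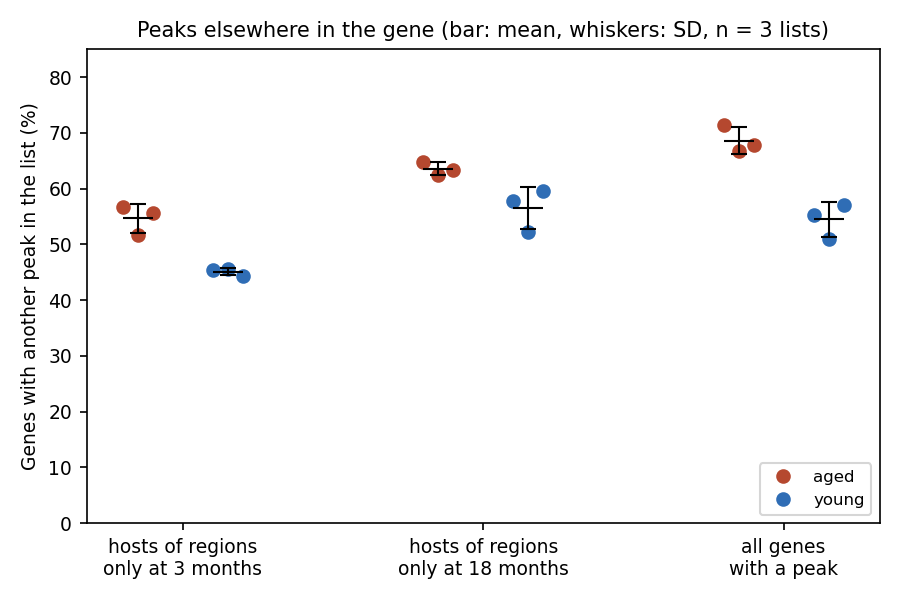
Share of genes (%) with another peak in each aged (red) and young (blue) list; points are lists, the bar is the mean and the whiskers the SD over 3 lists. Host genes of 3-month regions stand at 54.7% in the aged and 45.1% in the young lists, with their own 3-month region left out, and hosts of 18-month regions, counted alike, at 63.6% and 56.5%; the values of all genes with a peak, 68.6% and 54.5%, count every peak of a gene.

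Of the 17 genes with 2 of the regions, 8 were taken by their highest score. Myh6, the alpha myosin heavy chain of heart muscle, scored 464 and 376 in young lists 1 and 2 at an 81-base region, and 164, 67.4 and 53.3 in young lists 1, 2 and 3 at a 239-base region. Ppp1r12a, the targeting subunit of myosin phosphatase, scored 418 and 121 in young lists 1 and 2 over 122 bases and 151, 130 and 166 in the 3 young lists over 105 bases. Crebbp, the histone acetyltransferase that serves CREB, scored 537 and 82.4 in young lists 1 and 2 at one region and 56.6 and 98.5 in the same lists at another. Sorl1, a sorting receptor for the amyloid precursor protein, scored 118 and 103 in young lists 1 and 3 and, at its other region, 91.8 and 124 in young lists 2 and 3. These 4 genes and Plac9b had other peaks in all 3 aged lists, while Map3k1 had them in 2, Col6a3 in 1 and the predicted gene Gm47189 in 0.

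Along the gene span the regions were placed much like all merged regions, apart from a lower share at the start. Of the 591 regions in spans of at least 2000 bases, 40 (6.77%) had the midpoint in the first 1000 bases, 63 (10.7%) in the last 1000 bases and 488 (82.6%) between. Regions found only at 18 months were in the first 1000 bases in 11.6% of cases and in the last 1000 in 7.67%. Regions in all 6 lists stood at 10.1% and 7.31%, and all merged regions at 8.69% and 9.33%, with 82.0% between. Regions in 1 young and 0 aged lists, with 4.94% at the start and 10.9% at the end, were placed much like the 3-month set.

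With the span cut into 5 equal parts, from the start of transcription to its end, the set had 67, 72, 106, 134 and 212 regions, or 11.3%, 12.2%, 17.9%, 22.7% and 35.9%. In the first part it held a smaller share than the regions found only at 18 months (18.9%) and all merged regions (15.0%). A low share there was not particular to the set. It was 10.4% for regions in 1 young and 0 aged lists and 12.7% for those in 2 or 3 young lists and 1 aged list. In the last part the shares were 35.9% for the set, 34.3% for the 18-month regions and 37.3% for all merged regions. Counted by region, the host genes were also shorter, with a median span of 35.9 kb. It was 58.4 kb for 18-month regions and 53.0 kb over all merged regions. Regions in 1 young and 0 aged lists had 45.3 kb, and those in 2 or 3 young lists and 1 aged list had 46.8 kb. A span below that of all merged regions was thus not particular to the set, although the set had the shortest of these. Position and host length are described without a test, since the regions of a list share 1 library.

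**Figure D5:**
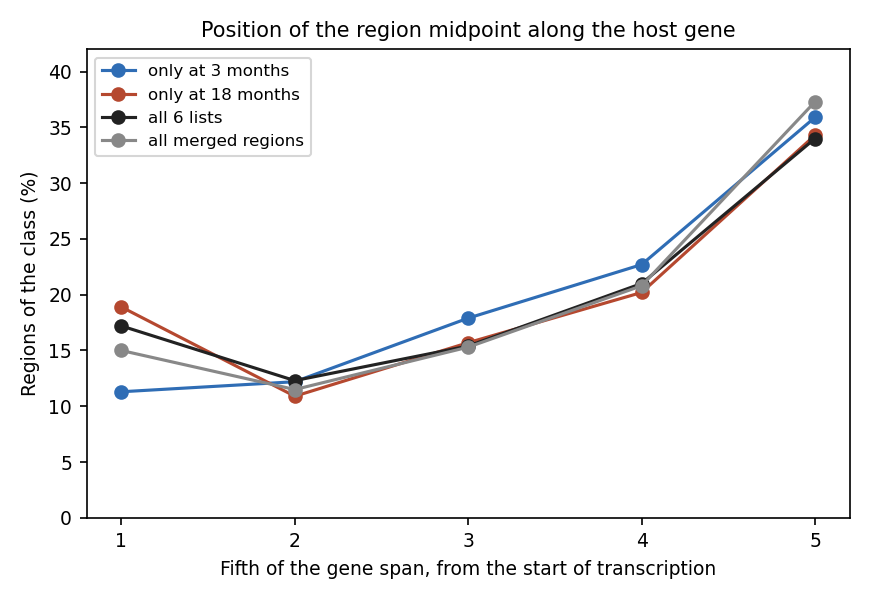
Share of regions (%) with the midpoint in each of 5 equal parts of the host gene span, from the start of transcription, for regions found only at 3 months, only at 18 months, in all 6 lists and all merged regions. The 3-month regions hold 11.3% in the first part, the lowest of the 4 classes drawn, and 35.9% in the last. Regions in 1 young and 0 aged lists, not drawn, hold 10.4% in the first part.

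The regions were narrow, with a median width of 207 bases and an interquartile range of 142 to 587, close to the 211 bases of the 18-month regions. The widest were in Zfp827, a zinc finger gene, at 3560 bases, with scores of 129, 60.2 and 106 in young lists 1, 2 and 3, and in Ttc14, at 2827 bases, with 89.7 and 95.7 in young lists 1 and 3. Sema4d, a semaphorin of axon guidance, had a 2286-base region with 73.1, 130 and 61.6 in young lists 1, 2 and 3. It was the only peak of the gene in any list.

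A second feature of the set was its share of predicted and multi-copy genes. Predicted genes, named Gm with a number or ending in Rik, hosted 52 of the 601 regions (8.65%), against 1.04% of 18-month regions and 2.07% of all merged regions. With zinc finger, Pramel, olfactory and vomeronasal receptor and other multi-copy families added, the count was 87 (14.5%), against 2.83% of 18-month regions, 3.69% of regions in all 6 lists and 4.57% of all merged regions. It was 7.15% for regions in 1 young and 0 aged lists and 7.53% for those in 2 or 3 young lists and 1 aged list. A share above that of all merged regions was thus not particular to the set, although the set had the highest. The share was 24.1% among regions in all 3 young lists and 11.6% among those in 2. It was 25.4% over peaks scoring at least 100 and 25.6% over peaks at or above their list's median score, but those rules gave 242 and 228 regions, and only 125 and 89 of the 639 regions overlapped them.

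The sequence of the gene starts gave a measure that used no peak and no gene name. Of the 454 host genes with a RefSeq window, 59 (13.0%) shared a run of at least 50 identical bases with the window of another gene, as the pairs printed above do. The same held for 330 of 7249 genes with any peak (4.55%), for 32 of 2033 hosts of 18-month regions (1.57%) and for 50 of 1897 hosts of regions in all 6 lists (2.64%). Among hosts of regions in all 3 young lists the share was 21.9% (21 of 96), and it was 22.1% over peaks scoring at least 100 and 24.2% over peaks at or above their list's median score. The sources used here do not say how reads with several matching places were assigned, and its part in these regions was not tested.

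Some multi-copy hosts lay near each other, although stretches without any did too: between 80 and 81 Mb of chromosome 10, 6 of 56 merged regions belonged to the set and 0 of the 6 had a predicted or multi-copy host. Between 94 and 95 Mb of chromosome 5, in a stretch with the Pramel genes, 7 of 32 merged regions belonged to the set, and between 60 and 61 Mb of chromosome 4, with the major urinary protein genes, 4 of 8 did. Pramel42 had a 591-base stretch with scores of 195, 239 and 339 in aged lists 1, 2 and 3. Its 3-month region, 1007 bases long and 970 bases away, scored 536, 741 and 361 in young lists 1, 2 and 3. Mup1 and Mup12, which encode urinary proteins, scored 185 and 159, and 190 and 99.4, in young lists 2 and 3. The start of the predicted gene 5031410I06Rik differed from that of Gm7347, 46781 bases away, at 1 of 90 bases, and their regions scored 371, 254 and 96.4 in young lists 1, 2 and 3 for 5031410I06Rik and 171 and 79.9 in young lists 1 and 2 for Gm7347.

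Some hosts are genes known from tissues other than brain, of which Ccdc42 and Myh6 are described above and the following were picked after their values were seen. Olfr1388 and Olfr463, both olfactory receptor genes, had regions of 936 bases each, with 101, 64.5 and 118 in young lists 1, 2 and 3 for Olfr1388 and 102 and 63.8 in young lists 2 and 3 for Olfr463. Vmn2r5, a vomeronasal receptor, scored 54.0 and 96.2 in young lists 2 and 3. Il17a, the T-cell cytokine whose start is printed above, scored 76.5, 61.5 and 63.2 in young lists 1, 2 and 3, and Ifnk, interferon kappa, scored 133, 52.1 and 55.4. The regions of Olfr1388 and Olfr463 cover the whole 936-base gene span, so no other peak could lie in these genes. Vmn2r5, Il17a and Ifnk, the last with a span of only 1965 bases, had no other peak in any list. Piwil1, a germline Argonaute protein, scored 271, 85.1 and 99.3, and had another peak in 1 aged list. Of the 32 olfactory receptor genes that hosted any merged region 2 were hosts in the set, and of the 13 vomeronasal receptor genes 1. A fixed list of olfactory, vomeronasal and germline genes had 2 hosts, Ccdc42 and Piwil1, among 10 genes with a peak. The share over all genes with a peak was 6.38%. Such hosts were thus not shown to be particular to the set.

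The 28 gene lists drawn up for hippocampal function and cell types held 428 genes with a peak, of which 32 (7.48%) hosted a 3-month region, beside 584 of all 9160 genes with a peak (6.38%). Several lists held no host. None of the 26 presynaptic genes with a peak hosted a 3-month region, and 19 of them hosted an 18-month region, which 28.1% of all genes with a peak did. Of the 21 postsynaptic genes 0 hosted a 3-month and 14 an 18-month region, and of the 16 GABA receptor and synthesis genes the numbers were 0 and 8. Immediate early genes (11 with a peak) and oxidative phosphorylation genes (23 with a peak) had no 3-month host either. At a background of 6.38%, lists of this size can lack a host without standing apart. The counts of hosts in the lists that follow are to be read beside the same share, and no list was tested.

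Glutamate receptors had 2 hosts among 23 genes with a peak. Gria4, an AMPA receptor subunit, scored 75.9 and 98.3 in young lists 1 and 3, and Grin3a, an NMDA receptor subunit, scored 70.2, 115 and 70.2 in young lists 1, 2 and 3. The sodium channel Scn1a scored 57.1 and 73.2 in young lists 2 and 3, and was the 1 host among 27 voltage-gated channel genes with a peak. All of these scores were below the median of their lists.

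Chromatin regulators had 3 hosts of 24, which were Chd5, Dnmt1 and Hdac4. Chd5, a neuronal chromatin remodeler, was the strongest. A stretch of the gene scored 729 and 880 in aged lists 2 and 3, and 1068 bases away the 122-base 3-month region scored 313, 145 and 163 in young lists 1, 2 and 3. Ubiquitin and proteasome genes had 4 hosts of 16. Trip12, a ubiquitin ligase, scored 397, 363 and 542 in young lists 1, 2 and 3, Psmc1, a proteasome ATPase, scored 93.5, 64.0 and 159, and Ubr4 and Herc1, both very large ubiquitin ligases, were present in 2 young lists each. Translation factors had 2 hosts of 19, Eif3a and Eif4g3, and splicing factors 1 of 27, Srsf10.

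Among the genes that write, erase or read m5C, 2 of 9 with a peak were hosts, both with scores near the minimum of 50. In Nop2, which encodes the nucleolar writer NSUN1, a 200-base stretch scored 90.1, 112 and 125 in aged lists 1, 2 and 3, and the 3-month region 95 bases away scored 57.0 and 56.0 in young lists 1 and 3. Tet2, an oxidase of 5-methylcytosine, scored 61.6 and 57.0 in young lists 1 and 2. Virma, a subunit of the m6A writer complex, scored 104 and 60.1 in young lists 1 and 2. Axon guidance genes hosted 3 regions of 24 genes with a peak, in Robo2, Sema4d and Slit1, and oxidative stress genes 2 of 15, in Cat and Keap1. Robo2, a receptor of Slit proteins, scored 90.9 and 107 in young lists 1 and 2, and Cat, the hydrogen peroxide-degrading catalase, scored 94.8 and 54.5 in young lists 2 and 3.

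Autophagy and lysosome genes had 2 of 16, Hexa and Ulk2. Hexa, a lysosomal hexosaminidase subunit, scored 195, 50.6 and 51.0 in young lists 1, 2 and 3. The list of Alzheimer-linked genes had 2 hosts of 21, Cdk5 and Sorl1, both described above.

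The labelled tissue was checked against markers. Of 10 excitatory neuron markers 9 had a peak and 6 had one in all 6 lists, beside 9160 and 2929 of all 20665 genes. The numbers were 10 and 1 for 12 inhibitory neuron markers, 10 and 3 for 11 astrocyte markers and 8 and 2 for 12 oligodendrocyte markers. They were 5 and 0 for 7 oligodendrocyte precursor markers, and 6 and 3 for 12 microglia markers. Endothelial and mural markers (12) had 8 and 3, and choroid plexus and ependyma markers (12) had 3 and 0. Peaks were thus not particular to excitatory neuron markers. Markers of excitatory neurons, inhibitory neurons, astrocytes, oligodendrocytes, microglia and choroid plexus hosted no 3-month region. At the 6.38% of all genes with a peak, lists this small can lack a host without standing apart. A contrast between cell types was not tested. Among oligodendrocyte precursor markers Pdgfra was a host, with 102 and 68.7 in young lists 1 and 3, and among endothelial and mural markers Pdgfrb and Acta2 were, 2 of 8 with a peak. Pdgfrb, a receptor of pericytes, scored 109 and 173 in young lists 1 and 3 over 1847 bases, and Acta2, smooth muscle actin, scored 81.2 and 71.6 in young lists 1 and 2. In bulk tissue, fewer cells of a type and less RNA per cell cannot be told apart.

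By distance to the nearest aged peak on the same strand, 14 of the 639 regions (2.19%) had one within 200 bases, 105 (16.4%) within 1000 bases and 304 (47.6%) within 10000 bases, with a median of 11220 bases. When regions with an aged peak within 1000 bases were left out, 534 remained.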

How the data were processed

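The deposited values were peak lists, 1 for each of the 6 antibody libraries, in which every peak has a position, a strand and a score assigned by the authors. Per the submitters' processing notes, reads were trimmed with cutadapt 1.9.3, aligned with HISAT2 2.0.4 and placed on mm10. No name, version or setting of the peak caller is given in the sources used here, and a spreadsheet of methylated sites was not analysed here. Some named genes are not reported here. Scores started at 50 in every list, and 3100 was the most frequent score.

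Peaks were merged when they touched or overlapped on the same strand, and hosts were protein-coding spans of RefSeq GRCm38.p6 overlapping by at least 1 base (21900 spans, 17492 with a strand). The merging was checked on simulated data with Python 3.11.15. No test was run. The regions, the gene lists and the comparisons were chosen with earlier results of these data known. Named regions were the 12 highest-scoring in all 3 young lists and the 8 highest in 2 (regions with a predicted host, no host or several hosts left out), up to 3 hosts per gene list or family, 8 of the 17 genes with 2 regions (those with the highest score), and the 4 widest regions. Alternatives were list length, score thresholds, number of lists, merging, windows and leaving out each list.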

Additional observations from a re-analysis of the deposited data

How the results depend on the processing

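The number of regions only at 3 months (639) and of regions only at 18 months (3535) became 1105 and 1096 with lists of equal length, and 228 and 1688 over peaks at or above their list's median score. With all 3 lists of the age required they were 146 and 1218. Over peaks scoring at least 100 the 3-month number was 242, and 125 of the 639 regions overlapped these. With 1 list left out at a time the numbers ran from 309 to 895 at 3 months and from 1843 to 4620 at 18 months. The share in the first or last 1000 bases (17.4%) was 23.0% over the upper peaks, 11.0% with 500-base and 24.2% with 2000-base windows. The share of regions whose host gene had a peak elsewhere in an aged list was 66.9%. It was 51.1% with equal lengths, 60.1% from a score of 100, 57.8% over the upper peaks and 62.0% with all 3 lists. The share in predicted or multi-copy hosts (14.5%) was 25.4%, 25.6% and 24.1% under the last 3 of these, and 12.5% to 18.6% with 1 list left out. The share of hosts with a shared 50-base run (13.0%) was 22.1%, 24.2% and 21.9%, and 10.8% to 17.0%. The share with an 18-month region within 2000 bases (7.49%) was 3.36% with equal lengths, 12.7% from a score of 100, 13.6% over the upper peaks, and 4.75% to 13.9% with 1 list left out. The share with a complementary neighbour (5.66%) was 2.59%, 9.86% and 10.6% under the same 3, 10.2% with all 3 lists, and 6.77% to 10.8% with 1 list left out. The last 3 shares and their alternatives were added after seeing the data. Merging without strand (637) or within 100 bases (636) moved none of these values beyond its limits. The causes were not tested. Read depth is unknown, so an unlisted peak may lie below the score minimum of 50.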

Other observations

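By the same rule, chromosome X held 35 regions only at 3 months of 793 merged regions (4.41%) and 109 only at 18 months (13.7%), and chromosome Y held 0 and 1 of 10. With X and Y kept the set had 674 regions.

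Of the 30 regions in no protein-coding span, the strongest was chr2:98663961-98664083 on the plus strand, with a score of 3100 in young lists 1 and 3, followed by chr11:52126851-52127769 on the plus strand, with 1169, 426 and 681 in young lists 1, 2 and 3. The nearest aged peaks on the same strand lay 1438 and 27700 bases away. These regions were singled out after their values were seen.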
